A study of Bos taurus with 40 samples.

Results

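RES Period 2 was compared with RES Period 1 in jejunal epithelium, using 20 of the 40 RNA-seq libraries of the series. The members were the 10 libraries labelled as restricted at the end of Period 1 and the 10 labelled as restricted at the end of Period 2. Both groups were purebred Holstein Friesian bulls on a diet of 70% concentrate and 30% grass silage. RES Period 1 animals were sampled on day 125 of a restricted feed allowance set for a gain of 0.6 kg per day. RES Period 2 animals had been through the same restriction and were sampled on day 55 of re-alimentation with feed ad libitum. ADLIB animals, 10 in each period, had feed ad libitum throughout. Their levels and their change over time were set beside those of RES animals. Each library came from a different bull, so the change over time is a difference between groups of animals, and period, age and feeding cannot be told apart within RES animals.

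Compensatory growth is the faster growth of an animal once feed is restored after a time of restriction. The jejunal epithelium is the single layer of cells that digests and absorbs most nutrients in the small intestine. It is renewed continually from stem cells in the crypts, and its mass and turnover follow feed intake. In whole tissue, fewer cells of a type and less RNA per cell cannot be told apart.

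Expression was given in CPM, reads on a gene set to a common library size and scaled by the authors. The reads behind these values were recovered, and between 4662197 and 7583118 reads per library fell on listed genes in RES Period 1 and between 5163246 and 7511034 in RES Period 2. No difference between the groups was detected in reads, genes at 0, share of the top 10 genes or correlation with the period's median profile (permutation tests with 100000 resamples, two-sided, adjusted p from 0.918 to 0.963 over 4 measures). Single libraries did stand apart. RES Period 2 replicate 1 had 585 listed genes at 0 and a correlation of 0.812 with the median profile, and RES Period 1 replicate 6 had 87 and 0.880. Several of the results that rest on these libraries are given with and without them. Genes carry Ensembl identifiers, none of which could be paired with a symbol, so what they encode is not given.

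Of 13509 genes listed in both periods, 13488 were above 1 CPM in at least 10 of the 20 RES libraries and were tested. With p-values adjusted by Benjamini and Hochberg's method and an FDR limit of 0.1, limma on log2(CPM + 1) called 6 genes, which is 0.0445% of those tested. Of these, 3 rose (0.0222%) and 3 fell (0.0222%) between the periods. Each of the 6 was also called by edgeR's likelihood ratio test on the recovered reads, the kind of test named in the study's methods. That test called 24 genes (0.178%), with 15 rises (0.111%) and 9 falls (0.0667%). The edgeR version differed from the study's, so counts of this test need not equal the study's. No gene passed a false discovery rate of 0.001 with limma, and 3 did with the likelihood ratio test. The calls of limma changed with single animals, and its count ran from 0 without RES Period 2 replicate 6 to 9 without RES Period 2 replicate 1.

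**Figure D1:**
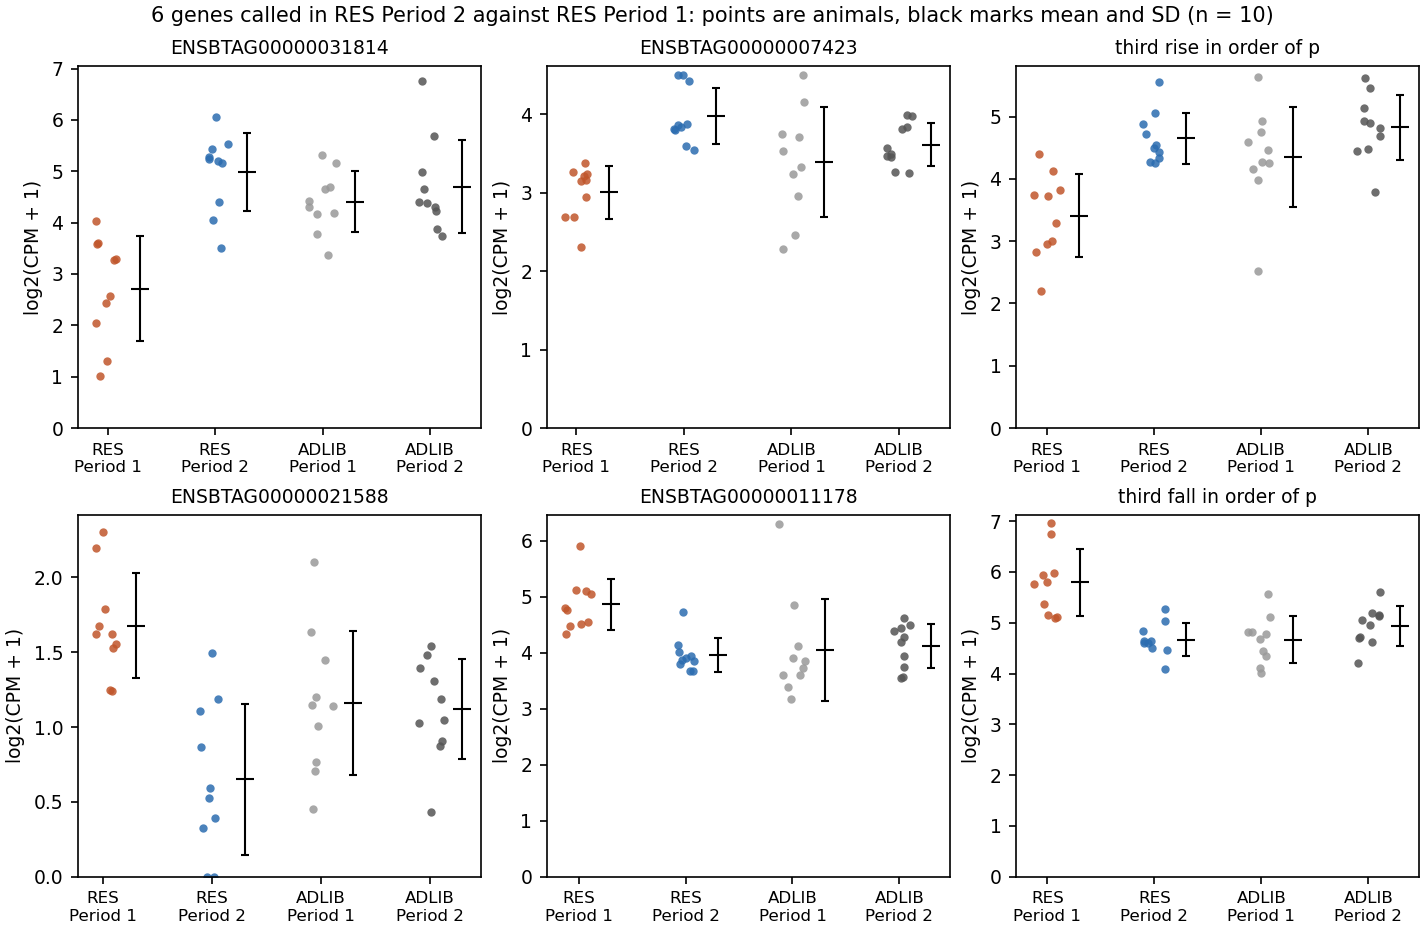
Expression of the 6 genes called by limma, as log2(CPM + 1) on the vertical axis, in the 10 animals of each of 4 groups. Points are animals and black marks are the mean and SD. RES Period 1 points mostly sit below RES Period 2 points in the upper panels and above them in the lower panels, with no overlap in ENSBTAG00000007423 only.

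The largest of the 3 rises was that of ENSBTAG00000031814. Its lowest, median and highest values were 1.03, 6.83 and 15.4 CPM in RES Period 1, against 10.4, 36.2 and 65.7 CPM in RES Period 2. The groups overlapped through RES Period 2 replicate 9, which lay below RES Period 1 replicates 5, 8 and 10 (15.4, 11.1 and 11.1 CPM) and above the other 7 Period 1 animals. The other 9 Period 2 animals were above all 10 Period 1 animals. The change was 2.27 ± 0.37 on the log2(CPM + 1) scale (SE, n = 10 and 10, 95% interval 1.49 to 3.04, limma adjusted p = 0.042). The likelihood ratio test gave a linear fold of 4.82 (FDR 0.00024). Reads behind the values ran from 6 to 102 per library in Period 1 and from 82 to 417 in Period 2. With each library left out in turn, limma called the gene in 19 of 20 fits, with an adjusted p of 0.12 without RES Period 2 replicate 6. In ADLIB animals the medians were 19.6 CPM in Period 1 and 20.1 CPM in Period 2. The RES Period 1 median was thus under, and the RES Period 2 median over, both ADLIB medians. ADLIB animals spread from 9.27 to 39.0 CPM in Period 1 and from 12.4 to 107 CPM in Period 2. A difference between RES and ADLIB animals within a period was not tested here for any gene.

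The second rise, ENSBTAG00000007423, had the narrowest groups of the 3. Its values were 3.96, 7.91 and 9.35 CPM (lowest, median, highest) in RES Period 1, against 10.7, 13.4 and 21.6 CPM in RES Period 2. The groups did not overlap, which held for 2 of 13488 genes tested (0.0148%). The change was 0.97 ± 0.16 on the log2(CPM + 1) scale (SE, 95% interval 0.63 to 1.31, limma adjusted p = 0.042), and the linear fold was 2.06 (likelihood ratio test, FDR 0.00024). Limma called it in 18 of 20 leave-one-out fits and lost it without RES Period 1 replicate 8 and without RES Period 2 replicate 6, where the adjusted p reached 0.13. ADLIB medians were 9.8 and 10.6 CPM, between those of RES Period 1 and RES Period 2, and ADLIB Period 1 animals spread from 3.87 to 21.6 CPM.

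The third rise in order of p had 3.6, 10.6 and 20.0 CPM in RES Period 1, against 18.1, 22.0 and 45.9 CPM in RES Period 2. In Period 2, 7 animals were above every Period 1 animal, and in Period 1, 9 animals were below every Period 2 animal. The change was 1.24 ± 0.24 on the log2(CPM + 1) scale (SE, 95% interval 0.75 to 1.74, limma adjusted p = 0.097). The linear fold was 2.33 (likelihood ratio test, FDR 0.0041). The limma call was close to its threshold and was made in 4 of 20 leave-one-out fits, those without RES Period 1 replicates 6 or 7 and RES Period 2 replicates 1 or 7. EdgeR's quasi-likelihood test gave an adjusted p of 0.13. The median in ADLIB animals went from 19.7 to 28.0 CPM, so the median of RES Period 1 was the low one among the 4 groups. ADLIB Period 1 animals spread from 4.76 to 48.8 CPM.

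Among the falls, ENSBTAG00000021588 had the smallest p and the lowest expression. Its values were 1.36, 2.08 and 3.93 CPM in RES Period 1, against 0, 0.474 and 1.81 CPM in RES Period 2. Reads were few, from 8 to 32 per library in Period 1 and from 0 to 14 in Period 2. It had no read in RES Period 2 replicates 1 and 3, which allows up to 0.885 and 0.50 CPM by 3 reads, a limit that covers counting error only. In Period 1, 8 animals were above all Period 2 animals. The change was -1.03 ± 0.20 on the log2(CPM + 1) scale (SE, 95% interval -1.43 to -0.62, limma adjusted p = 0.097), and -1.69 on the log2 scale of the likelihood ratio test (FDR 0.0039). Limma called it in 4 of 20 leave-one-out fits, without RES Period 1 replicate 5 and without RES Period 2 replicates 1, 7 or 10. Without both libraries that stand apart the limma adjusted p was 0.15, and edgeR's quasi-likelihood test gave an adjusted p of 0.34. ADLIB medians were 1.2 CPM in each period.

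ENSBTAG00000011178 fell from 19.2, 26.5 and 58.9 CPM in RES Period 1 to 11.7, 13.9 and 25.5 CPM in RES Period 2. The highest animal lay far above its group in each period, RES Period 1 replicate 6 in the first and replicate 3 in the second. The next highest value in Period 2 was 16.5 CPM, below all 10 Period 1 animals. The change was -0.90 ± 0.18 on the log2(CPM + 1) scale (SE, 95% interval -1.27 to -0.54, limma adjusted p = 0.097), and the linear fold was -2.0, a fall (likelihood ratio test, FDR 0.0017). It kept its limma call in 4 of 20 leave-one-out fits, without RES Period 1 replicates 1 or 6 and without RES Period 2 replicates 1 or 3. Without both libraries that stand apart the adjusted p was 0.058. The ADLIB medians, 12.8 and 17.9 CPM, lay under the RES Period 1 median. ADLIB animals spread from 8.07 to 77.9 CPM in Period 1 and from 10.7 to 23.5 CPM in Period 2.

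The third fall in order of p was the most highly expressed of the 6 genes. Values were 33.2, 54.1 and 125 CPM in RES Period 1, against 16.1, 23.6 and 37.4 CPM in RES Period 2. Of the Period 2 animals, 9 were below every Period 1 animal. The change was -1.13 ± 0.22 on the log2(CPM + 1) scale (SE, 95% interval -1.59 to -0.67, limma adjusted p = 0.097), with a linear fold of -2.44 (likelihood ratio test, FDR 0.00044). The limma call held in 4 of 20 leave-one-out fits, without RES Period 1 replicates 1 or 5 and without RES Period 2 replicates 1 or 7, and it was lost without both libraries that stand apart (adjusted p = 0.12). ADLIB medians were 25.7 CPM in Period 1 and 31.0 CPM in Period 2. In RES animals the median went from above both to below both. ADLIB animals spread from 15.1 to 46.6 CPM in Period 1 and from 17.4 to 47.8 CPM in Period 2.

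**Figure D2:**
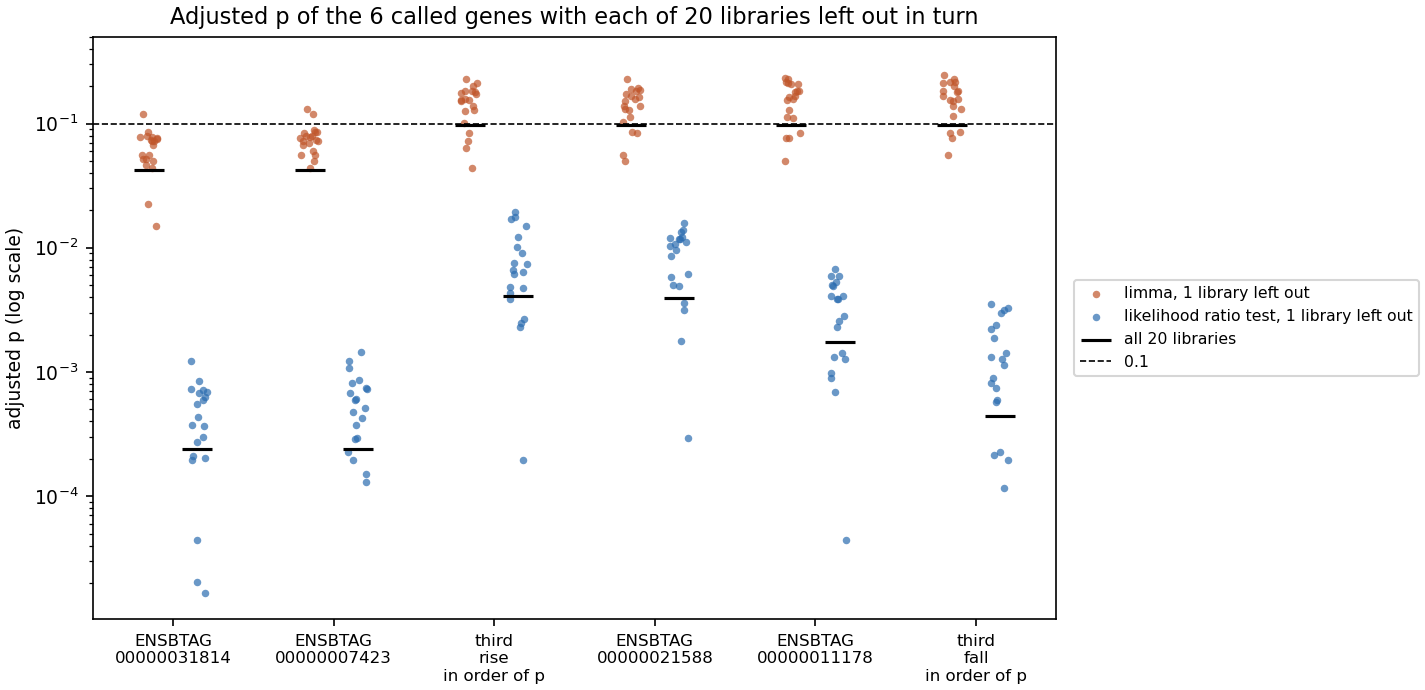
Adjusted p on a log axis for the 6 genes called by limma, with each of the 20 RES libraries left out in turn. Points are fits with 1 library left out, black bars are the fits of all 20, and the dashed line is 0.1. All likelihood ratio points lie under the line, while most limma points of the third rise and of the 3 falls lie above it.

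In the likelihood ratio test, each of the 6 genes was called in 20 of 20 leave-one-out fits. The largest FDR among these was 0.0196, for the third rise. Across the limma leave-one-out fits, the change ran from 2.08 to 2.43 for ENSBTAG00000031814 and from 0.894 to 1.02 for ENSBTAG00000007423. For the third rise it ran from 1.11 to 1.35, and for the third fall from -1.20 to -0.996. ENSBTAG00000021588 ran from -1.12 to -0.956 and ENSBTAG00000011178 from -0.988 to -0.786 (log2(CPM + 1) scale). With all libraries the third rise and the 3 falls shared a limma adjusted p of 0.097, just under the limit. The library codes in the titles hold a digit whose meaning the labels do not give, with between 2 and 4 RES libraries of each period at each of 4 digits. Within every digit each of the 6 genes changed in the direction of the pooled value. The genes were called from these same libraries, so this agreement is partly fixed by their choice and is no separate evidence. The genes ranked 14 and 16 by limma, called by neither test, also kept their direction within all 4 digits. The change of ENSBTAG00000031814 was 2.18, 3.16, 2.25 and 1.7 within the 4 digits, and that of ENSBTAG00000007423 was 0.78, 0.97, 0.73 and 1.21 (log2(CPM + 1) scale). Within-digit changes of ENSBTAG00000021588 were -0.68, -1.66, -1.03 and -0.49, and those of ENSBTAG00000011178 were -0.99, -0.94, -1.11 and -0.53. The third rise gave 0.56, 1.68, 1.16 and 1.80, and the third fall gave -0.99, -1.43, -1.17 and -0.81. With the digit as a covariate limma called 1 gene, ENSBTAG00000031814 (adjusted p = 0.066), and the other 5 had adjusted p from 0.113 to 0.213.

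Outside the 6, the 10 genes next in order of limma p held 3 that were higher and 7 that were lower in RES Period 2, with adjusted p from 0.154 to 0.476 and changes between 0.66 and 1.54 in size on the log2(CPM + 1) scale. None passed limma's threshold, and 8 of them were calls of the likelihood ratio test. The gene ranked 7 had a median of 1.77 CPM at the end of restriction and 6.38 CPM after re-alimentation (likelihood ratio test, FDR 0.0021). The gene ranked 8 was the other one with groups that did not overlap. It went from 11.1, 15.7 and 79.2 CPM to 2.05, 7.39 and 10.7 CPM, with RES Period 1 replicate 6 at the highest value. Its limma adjusted p was 0.158 against an FDR of 0.0019 in the likelihood ratio test. Without RES Period 1 replicate 6 its limma adjusted p was 0.076, under the limit of 0.1.

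By the likelihood ratio test, the gene ranked 9 fell from a median of 12.4 CPM to 4.39 CPM (FDR 0.0147). The gene ranked 10 was abundant, with 216, 235 and 549 CPM in RES Period 1, against 103, 162 and 217 CPM in RES Period 2, and 9 animals of each period lay outside the range of the other (FDR 0.0156). Medians of the gene ranked 11 were 3.63 and 7.77 CPM, and 8 Period 1 animals were below all Period 2 animals (FDR 0.011). The gene ranked 12 rose from 27.8, 72.5 and 95.2 CPM to 69.9, 140 and 330 CPM by the likelihood ratio test (FDR 0.0042). Its highest value was in RES Period 2 replicate 1, and without that library the FDR was 0.0084. Each of the genes ranked 7 to 12 was called by the likelihood ratio test in 20 of 20 leave-one-out fits. EdgeR's quasi-likelihood test on all 20 libraries called none of them (adjusted p from 0.112 to 0.288). The genes ranked 13 and 15, both lower in RES Period 2, were called by the likelihood ratio test in 14 and 10 of 20 fits. Medians were 2.26 and 0.713 CPM for the first (FDR 0.0405) and 11.4 and 7.05 CPM for the second (FDR 0.0622).

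**Figure D3:**
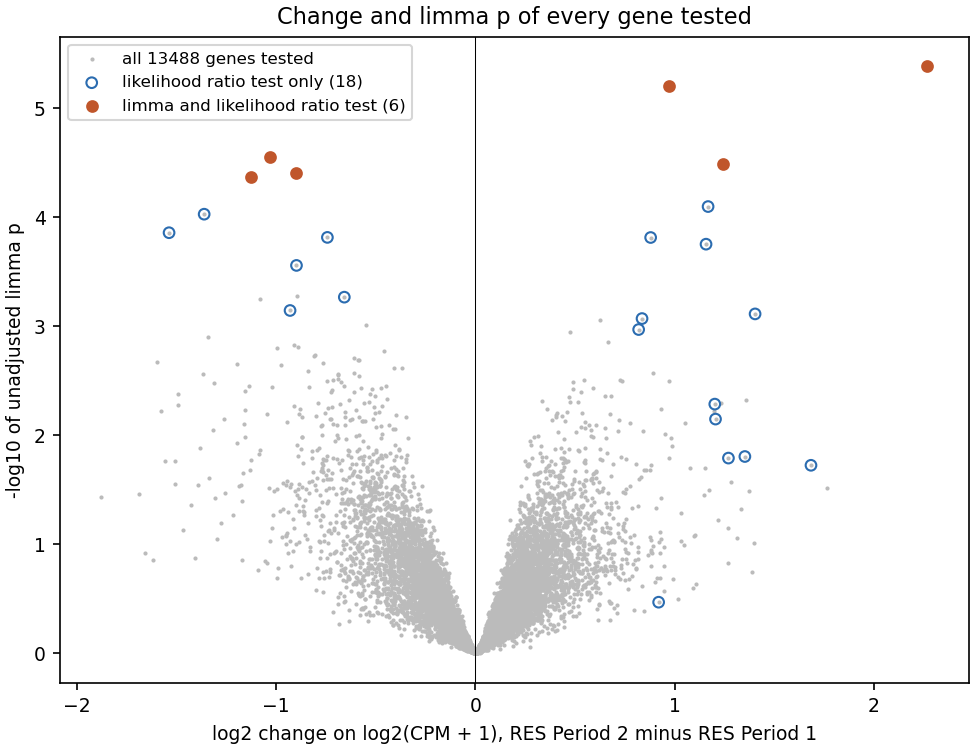
Change on the log2(CPM + 1) scale against the unadjusted limma p on a -log10 axis for all 13488 genes tested. Filled points are the 6 genes called by both tests and open circles the 18 called by the likelihood ratio test only, some of which lie low in the plot, with large limma p.

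The likelihood ratio test called 18 genes that limma did not, 12 higher and 6 lower in RES Period 2. EdgeR's quasi-likelihood test called none of these 18, with adjusted p from 0.112 to 0.504. Its 4 calls were all among those of limma. All 24 calls of the likelihood ratio test had the same sign in limma, with linear folds from -3.23 to 126.8. Calls of 13 of the 24 held in every leave-one-out fit and 11 were lost in at least 1 of them. Several of the 15 that were higher rested on few animals. Their highest Period 2 library was RES Period 2 replicate 1 in 6 of them and replicate 2 in 4, and that library held from 14.2 to 99.2% of the summed CPM of the 10 animals. It held over 50% in 3 genes.

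The extreme case was the gene with the fold of 126.8. Its median went from 1.46 CPM to 1.63 CPM, while RES Period 2 replicate 1 had 2361 CPM and the next animal 7.87 CPM. Its limma change was 0.92 ± 0.94 (log2(CPM + 1) scale, SE, adjusted p = 0.89), and without that library its likelihood ratio FDR was 0.958. In 2 further genes the same library held most of the signal, with 126 CPM against 19.8 CPM in the next animal and 575 CPM against 95.2 CPM. Without the library their FDR was 0.163 and 0.346.

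Another 2 genes with their highest value in RES Period 2 replicate 1 were spread over more animals. One had medians of 3.99 and 9.61 CPM, a highest value of 74.7 CPM and a next highest of 48.5 CPM (likelihood ratio test, FDR 0.0335, called in 17 of 20 fits). The other had medians of 60.0 and 110 CPM and highest values of 632 and 428 CPM (FDR 0.0542, called in 10 of 20 fits). Both lost their call without RES Period 2 replicate 1, at FDR 0.104 and 0.124, and without RES Period 2 replicate 2, at FDR 0.127 and 0.216.

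Of the other rises that only the likelihood ratio test called, the gene ranked 18 by limma went from 0.547, 1.51 and 2.93 CPM to 2.07, 3.76 and 23.1 CPM, with a next highest of 21.6 CPM, and was called in 20 of 20 fits (FDR 0.0026). Those ranked 19 and 22 had medians of 1.77 and 1.09 CPM at the end of restriction and of 3.65 and 2.54 CPM in RES Period 2 (FDR 0.0542 and 0.0596), and each was called in 12 of 20 fits. The gene ranked 89 had medians of 6.76 and 18.1 CPM and was called in 11 (FDR 0.0542). The last of the falls, ranked 17, had 85.3, 119 and 265 CPM in RES Period 1, against 22.0, 70.7 and 102 CPM in RES Period 2, with 7 animals of each period outside the range of the other (FDR 0.0596, called in 11 of 20 fits).

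**Figure D4:**
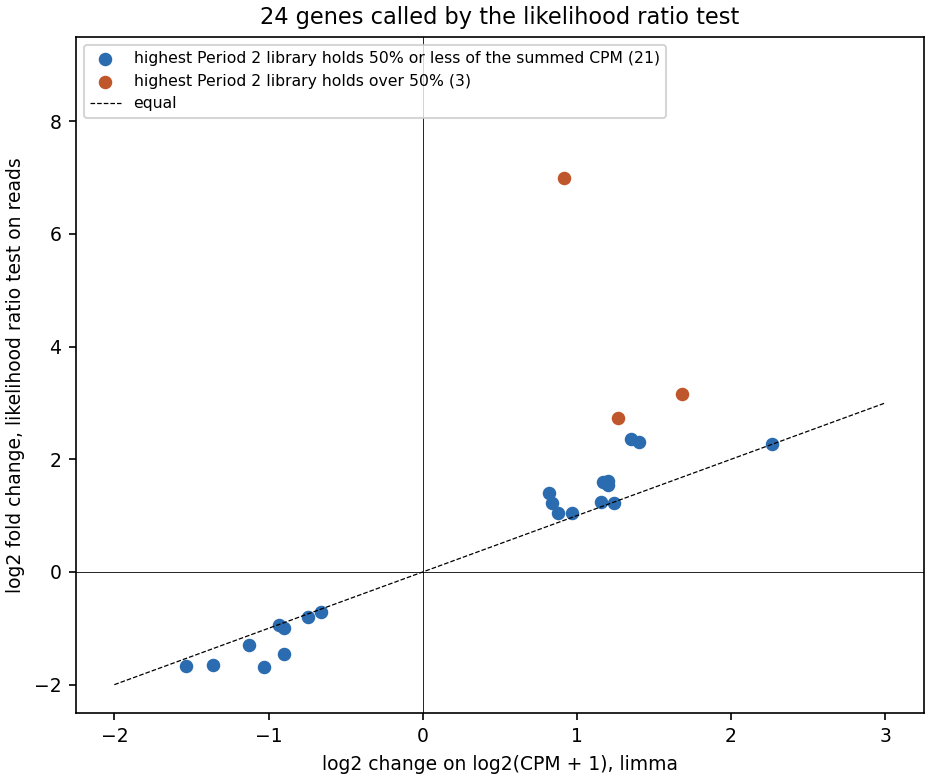
Log2 fold change of the likelihood ratio test on the reads against the limma change on log2(CPM + 1), for the 24 genes called by the likelihood ratio test. Points near the dashed line have equal values, and the 3 genes with over 50% of the summed Period 2 CPM in 1 library lie above it, the highest at 6.99 against 0.92.

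Leaving out both RES Period 2 replicate 1 and RES Period 1 replicate 6, an alternative chosen with earlier results of these data known for limma and added after seeing the data for the likelihood ratio test, limma called 7 genes (4 higher, 3 lower) and the likelihood ratio test called 39 (18 higher, 21 lower). The latter held 17 of the 24 first called and all 6 limma calls. With limma weighting libraries by their scatter, 64 genes were called, 32 in each direction, among them all 6. The lowest weights were 0.0965 for RES Period 2 replicate 1 and 0.168 for RES Period 1 replicate 6.

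Across all genes tested, changes were mostly small beside their uncertainty. The median change was 0.02 and the median size of change 0.152 on the log2(CPM + 1) scale, against a median SE of 0.202. The median half-width of a gene's 95% interval was 0.419. In 94 genes the change was over 1 in size, 36 higher and 58 lower in RES Period 2, and in 44 genes without both libraries that stand apart. At an unadjusted limma p under 0.05 there were 762 genes (5.65%), a share close to what this threshold passes when no gene changes. Of these, 302 were higher and 460 lower. That split depended on scaling and on the same libraries, with 236 higher and 528 lower after TMM scaling of the 20 libraries together, and 423 higher and 362 lower without both libraries. With all 20 libraries it leaned to lower values among the 3372 genes with the lowest mean expression, up to 8.45 CPM. There 58 were higher and 207 lower, a count that was not repeated without both libraries.

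The spread between animals was larger in RES Period 2 than in RES Period 1, with median SDs per gene of 0.47 and 0.42 (log2(CPM + 1) scale) and the larger SD in Period 2 for 59.3% of genes. Without both libraries that stand apart, the medians were 0.353 and 0.356, and 50.5% of genes had the larger SD in Period 2.

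ADLIB animals gave the change over time without restriction. In the fit of all 40 libraries, 0 of 13509 genes were called by limma for the ADLIB change. At an unadjusted p under 0.05 there were 345, a smaller share than this threshold passes on average when no gene changes. The difference between the RES and ADLIB changes was called in 0 genes (0%), with a smallest adjusted p of 0.377 and 877 genes at an unadjusted p under 0.05 (6.49%), while the likelihood ratio test called 19. One of these 19 of 13509 genes was among the 6 limma calls and 7 were among the 24. The 7 included the gene with the fold of 126.8 (likelihood ratio FDR 0.00043 for the difference). Others of the 7 also had their highest Period 2 value in RES Period 2 replicate 1. The likelihood ratio test of the difference was not repeated without that library. The smallest limma p belonged to the third fall, at -1.39 ± 0.29 for the RES minus the ADLIB change (SE, log2(CPM + 1) scale). The ADLIB change of the 6 genes had a median size of 0.242, against 1.08 for their RES change. The 6 genes were called for their RES change, so its larger size is partly fixed by that choice and is no separate evidence. For the ADLIB change of all genes the median size was 0.13. The ADLIB change had the sign of the RES change in 4 of 6 genes, against 44.8% of all genes. For ENSBTAG00000031814 the RES minus ADLIB difference was 1.97 and for ENSBTAG00000007423 it was 0.75, each with an adjusted p of 0.72, so a difference in response between the diets was not shown for either.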

How the data were processed

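Jejunal epithelium was scraped at slaughter, 1 library per bull. According to the study's methods and the labels, the authors trimmed single-end reads, aligned them to UMD3.1 with TopHat and Bowtie, counted protein-coding Ensembl genes with HTSeq and used edgeR. The deposited signal per gene is CPM that the authors scaled by TMM over the 20 libraries of a period. Each value was a whole number of reads (tolerance 0.01 reads), so reads were recovered. The unit was checked before a test was chosen, and 0 library pairs were identical.

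Genes listed in both periods and passing 1 CPM in 10 or more libraries of the fit were tested with limma 3.58.1 (R 4.3.3, intensity trend, pseudocount 1) with Benjamini-Hochberg adjustment and an FDR limit of 0.1. The study's threshold, 0.001, edgeR 4.0.16 (likelihood ratio and quasi-likelihood), limma-voom and DESeq2 1.42.0 on the recovered reads, and leaving out each library, were alternatives. Limma, the likelihood ratio test and the quasi-likelihood test were run on simulated reads with known changes. No simulated library was made to stand apart, so the simulation does not bear on calls that rest on such libraries. The members, lists, threshold and tests were chosen with earlier results of these data known.

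Genes to be described were all calls of limma and of the likelihood ratio test, and the 10 next in order of limma p. Identifiers could not be paired with symbols (0 matched in the RefSeq table of ARS-UCD 2.0), so the planned gene lists, cell type markers and promoter motifs were not analysed here, the labelled tissue was not checked against markers, and identifiers of 2 rises and 2 falls only are given. Part of the deposited description names muscle and other numbers of animals. The sample labels were followed.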

Additional observations from a re-analysis of the deposited data

Results flagged for a closer look

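In 20 groups of 10 animals tested for a single animal far from the others, 6 were picked out by Dixon's ratio of gap to range. Chance picks about 1 in 20 independent groups. These groups were not independent, since the same libraries recur and the gene was called from the same values. The number picked out therefore cannot be set against that rate. For ENSBTAG00000011178 the ratio was taken on the log2(CPM + 1) scale. It was 0.499 in RES Period 1, with replicate 6 highest, and 0.563 in RES Period 2, with replicate 3 highest. For the number of listed genes at 0 it was 0.831 in RES Period 1 (replicate 6, 87 genes) and 0.937 in RES Period 2 (replicate 1, 585 genes). For the correlation with the period's median profile it was 0.685 in RES Period 1 (replicate 6, 0.880) and 0.603 in RES Period 2 (replicate 1, 0.812).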

How the results depend on the processing

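For RES Period 2 v RES Period 1, the 6 genes called by limma became 0 at a false discovery rate under 0.001, 2 at 0.05, 2 with a mean of at least 5 CPM (a filter that tests fewer genes), 2 without the intensity trend, 64 with array weights, 24 with the likelihood ratio test and 29 with DESeq2, which held all 6. The title code digit as a covariate gave 1. Leaving out single libraries gave 0 to 9. The count stayed within 1.5 times the main count with a pseudocount of 0.5 (6), no filter (6), joint TMM (6), robust variances (6), quasi-likelihood (4), voom (5), both libraries that stand apart left out (7) and the fit of all 40 libraries (8). The labels do not say that a replicate number marks anything shared, and same-numbered libraries came from different animals, so the numbers were not used as pairs. Deviations of same-numbered animals had a mean correlation of 0.158 (-0.207 to 0.619), against -0.0066 for different numbers. Of 10 pairs, 6 were over 0.1, and 3 of 10 animals correlated best with their own number. With the replicate block limma made 3 calls, 2 of them among the 6, and ENSBTAG00000031814 and ENSBTAG00000007423 had adjusted p of 0.197 and 0.163. The likelihood ratio test with the block made 72, 14 higher and 58 lower, with all 6 among them. Without both libraries that stand apart the likelihood ratio test called 39. Its 24 calls became 3 at 0.001 and 18 at 0.05, and 16 to 44 with single libraries left out, 44 without RES Period 2 replicate 1. The RES minus ADLIB difference, 0 genes with limma, became 9 with array weights, 19 with the likelihood ratio test and 14 with DESeq2, and 0 to 1 with single libraries left out. The cause of these changes was not tested. No direction of the 6 genes reversed. Precision was limited by the number of animals and, for ENSBTAG00000021588, by reads.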

Other observations

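The comparison leaves out genes listed in only 1 period, 176 in Period 1 and 96 in Period 2. Most were low, with a median of group medians of 1.12 CPM for the former and 1.02 CPM for the latter in RES animals. One gene listed only in Period 2 stood out, chosen after its values were seen. It had a median of 31.1 CPM in RES Period 2, against 1.62 CPM for the next of the 96 genes. This median falls between 5 animals with high and 5 with low values and is not the level of a typical animal. Of the 10 RES animals, 5 were above 20 CPM and 5 below 1 CPM, and of the 10 ADLIB animals in Period 2, 6 were above 20 CPM and 4 below 1 CPM. The 11 animals above ran from 27.3 to 141 CPM, and the highest of those below was 0.652 CPM.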
